A study of Homo sapiens with 6 samples.

Results

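The genes described here are the TRIM (tripartite motif) family, taken as every gene symbol made of TRIM, a number and at most a trailing A or B. The count tables list 69 such symbols among 56637. Membership rests on the symbol alone, but attention was drawn to the family by the low level of TRIM22 in the same comparison that is described below, so the values of TRIM22 are given as a description, with no test.

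The libraries came from MM.1S, an established human multiple myeloma line, which is a cancer of antibody-secreting plasma cells. In 3 libraries the cells had received, by lentivirus, a short hairpin RNA against KDM6B (shKDM6B), the gene of a demethylase acting on lysine 27 of histone H3, and in 3 libraries a hairpin against luciferase (shLuc). All 6 cultures had been infected and puromycin-selected, and the labels name no second KDM6B hairpin, no rescue and no interferon treatment. Totals were 7952156 to 9848351 counts per shKDM6B library and 7338393 to 8996159 counts per shLuc library. Nothing in the labels says that the libraries of a group came from cultures kept apart, so every p-value below speaks of variation among these 6 libraries, and that variation may be technical.

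Most TRIM proteins are ubiquitin ligases. A RING finger at the amino end contacts the ubiquitin-conjugating enzyme, B-box zinc fingers and a coiled coil drive assembly into oligomers, and the carboxy end, which differs between subfamilies, recognises the substrate. Many members with a PRY-SPRY domain at that end are induced by interferon and act against viruses or tune innate immune signalling, and other members regulate chromatin, RNA, the cytoskeleton or protein turnover.

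The interferon link can be looked for in the DNA around the start sites. The interferon-stimulated response element, searched as GAAA, any 2 bases and again GAAA, on both strands in windows from 250 bases before to 50 bases after a gene start (RefSeq, GRCh38.p14), was found in 9 of the 54 members matched by symbol, 16.7%, against 4.38% of 27305 gene symbols in the same table. TRIM22 was not among the matched members. Each match is shown 5′ to 3′ on the strand of its gene, with 7 flanking bases, and with the matching bases, overlapping copies joined, in capitals.

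TRIM5, chr11:5685085-5685108, minus strand: gtttatcTTTCACTTTCctgccct
TRIM34, chr11:5624904-5624927, plus strand: ccaaaaaTTTCACTTTCatttctc
TRIM21, chr11:4393663-4393692, minus strand: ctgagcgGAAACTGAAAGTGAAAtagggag
TRIM26, chr6:30213578-30213607, minus strand: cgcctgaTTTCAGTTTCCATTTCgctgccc
TRIM14, chr9:98119232-98119255, minus strand: gccgaggTTTCGGTTTCccttggg
TRIM44, chr11:35662733-35662756, plus strand: tgacgggGAAAGGGAAAgtggaac
TRIM69, chr15:44736459-44736482, plus strand: atgagggTTTCTCTTTCtcttaag
TRIM16, chr17:15683015-15683038, minus strand: gaggtaaGAAATAGAAAtaaaggg
TRIM2, chr4:153151939-153151962, plus strand: aaatagaGAAAAGGAAAtaagccg

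TRIM5, TRIM34 and TRIM21 held the same 10 letters, GAAAGTGAAA when read on the strand that starts with GAAA, a string present in 0.202% of all 35116 windows. TRIM21 and TRIM26 shared a second string, GAAACTGAAA, present in 0.265% of windows. In TRIM5 the match began 27 bases before the start site and in TRIM14 26 bases before it, and these are the members of the interferon group with the clearest fall and rise after TRIM22. Their 250 bases before the start are printed, again with the match in capitals. They lie on the minus strand at chr11:5685075-5685324 for TRIM5 and at chr9:98119223-98119472 for TRIM14. Whether the surroundings of the 2 elements bear on the fall or the rise was not tested.

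TRIM5: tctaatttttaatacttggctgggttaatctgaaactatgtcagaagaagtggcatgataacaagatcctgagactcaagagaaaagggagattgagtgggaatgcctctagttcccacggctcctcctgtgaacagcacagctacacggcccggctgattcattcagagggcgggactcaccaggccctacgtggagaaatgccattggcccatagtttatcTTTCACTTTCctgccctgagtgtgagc
TRIM14: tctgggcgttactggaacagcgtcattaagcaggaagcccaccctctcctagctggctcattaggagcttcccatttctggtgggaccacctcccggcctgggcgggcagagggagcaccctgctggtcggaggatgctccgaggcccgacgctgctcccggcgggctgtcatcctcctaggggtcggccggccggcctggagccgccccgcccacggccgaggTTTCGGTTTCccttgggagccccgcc

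Of the 69 members, 54 had at least 1 count in some library and 15 were at 0 in all 6. After a filter on low counts 39 members were tested, and the other 15 with counts had 1 to 30 counts summed over the 6 libraries. Of the 39, 36 passed the filter limit in every library, while TRIM71 reached it in shLuc libraries alone and TRIM46 in shKDM6B libraries alone, so these 2 had to differ to be tested, and they are given as values with no p. Levels are in CPM, counts relative to the library total, scaled by TMM, the trimmed mean of M-values. The family's summed level was 2745 to 2762 CPM in shKDM6B libraries and 2852 to 2933 CPM in shLuc libraries, and the groups did not overlap. The sum is weighted toward abundant members, and the median log2 fold change of the 36 was -0.02.

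KDM6B itself stood at 32.6 ± 2.4 CPM in shKDM6B libraries and 53.8 ± 4.9 CPM in shLuc libraries (SD, n = 3 each), 60.6% of the shLuc level (log2 fold change -0.71, SE 0.073, adjusted p = 7.72e-08 by edgeR's quasi-likelihood test, as for every adjusted p here). Plasma cell identity was visible in every library, with SDC1 (CD138) at 479 ± 38 CPM in shKDM6B libraries and 511 ± 32 CPM in shLuc libraries (SD, n = 3 each), although CD38 and TNFRSF17 (BCMA) were lower and PRDM1 higher among the 7 tested of 8 plasma cell markers. Most other cell types left little trace: the T cell, monocyte and fibroblast marker lists summed to at most 10.2 CPM in any library, and the erythroid list, in which HBB was lower in shKDM6B libraries, to at most 23.6 CPM, against at least 2138 CPM for the plasma cell markers. CD3G, FCGR3A, LUM and HBA2 were at 0 in all 6 libraries, and CD3E was lower in shKDM6B libraries. The exception was a set of 10 squamous epithelial markers. They summed to 37.7, 50.4 and 1.72 CPM in shKDM6B replicates 1 to 3 and to 13.3, 3.28 and 3.09 CPM in shLuc replicates 1 to 3. Of these 5 were tested and 4, all keratins, were called higher, beside 20.1% of all tested genes, but their groups overlapped. EPCAM went the other way and did not pass, at 0.93 CPM in shKDM6B libraries and 1.69 CPM in shLuc libraries (log2 fold change -0.83, adjusted p = 0.0680). The part of these markers in the results below was not tested. Values without the 3 libraries of highest keratin level are given where a call or its size differs by much. That analysis leaves a lone shKDM6B library, replicate 3, so its fold changes are printed without a p-value. The log2 fold change of KDM6B in it was -0.58.

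TRIM22, an interferon-induced ligase that restricts several viruses, had the largest change of the 39 tested members. Its raw counts were 8, 5 and 17 in shKDM6B replicates 1 to 3 and 92, 99 and 109 in shLuc replicates 1 to 3. These correspond to 1.11 ± 0.56 CPM in shKDM6B libraries and 11.9 ± 0.7 CPM in shLuc libraries (SD, n = 3 each). Every shKDM6B value lay far below every shLuc value, and the log2 fold change of shKDM6B over shLuc was -3.36 (SE 0.22), a 10.3-fold lower level. The difference was smaller without the 3 libraries of highest keratin level, at -2.75 on the log2 scale. The remaining shKDM6B library is the one with the highest TRIM22 level. In bulk RNA, fewer cells expressing a gene and less RNA per cell cannot be told apart.

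TRIM5, whose protein recognises incoming retroviral capsids, lies next to TRIM22 on chromosome 11, on the opposite strand. It fell in every shKDM6B library, though less than TRIM22. Its level was 12.7, 12.3 and 12.8 CPM in shKDM6B replicates 1 to 3 and 27.2, 28.9 and 27.7 CPM in shLuc replicates 1 to 3. The spread within each group was small beside the gap, and the log2 fold change was -1.15 (SE 0.089, adjusted p = 1.05e-09). The log2 fold change of TRIM22 minus that of TRIM5 was -2.21, a description with no test.

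**Figure D1:**
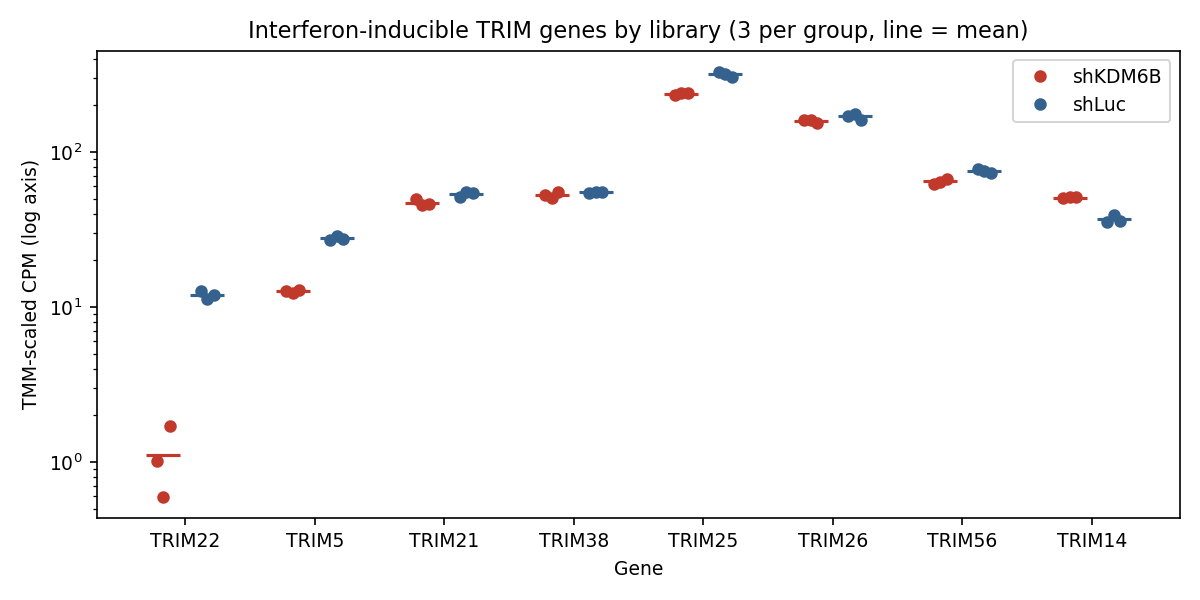
TMM-scaled CPM (log axis) of 8 interferon-inducible TRIM genes in each of the 3 shKDM6B and 3 shLuc libraries, with a line at each group mean. TRIM22 and TRIM5 sit well below their shLuc values in all 3 shKDM6B libraries, TRIM25, TRIM56 and TRIM21 slightly below, and TRIM14 above.

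The other interferon-inducible relatives differed by far less and not all in 1 direction. TRIM25, which ubiquitinates the RNA sensor RIG-I, was at 235, 239 and 240 CPM in shKDM6B replicates 1 to 3 and at 329, 320 and 305 CPM in shLuc replicates 1 to 3. The groups did not overlap (log2 fold change -0.42, SE 0.044, adjusted p = 1.31e-07). TRIM56, which acts in antiviral signalling and has no PRY-SPRY domain, was lower too, at 64.6 ± 2.4 CPM in shKDM6B libraries and 75.5 ± 2.1 CPM in shLuc libraries (SD, n = 3 each; log2 change -0.22, SE 0.050, adjusted p = 0.00125). Without the 3 libraries of highest keratin level the log2 fold change of TRIM56 was -0.15.

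TRIM21, the intracellular antibody receptor that sends antibody-bound particles to the proteasome, was slightly lower. It stood at 49.8, 45.5 and 45.9 CPM in shKDM6B replicates 1 to 3 and at 51.4, 54.9 and 54.1 CPM in shLuc replicates 1 to 3 (log2 fold change -0.19, SE 0.058, adjusted p = 0.0128). The nearest values of the 2 groups were 49.8 and 51.4 CPM, and the call was lost in 5 of 14 alternative analyses, among them leaving out shKDM6B replicate 2, shKDM6B replicate 3 or shLuc replicate 2 (adjusted p from 0.0517 to 0.155 over the 5).

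TRIM38, a feedback regulator of innate immune signalling, and TRIM26, a ligase encoded in the MHC region, did not pass the threshold. TRIM38 had 53.1 ± 2.3 CPM in shKDM6B libraries and 55.0 ± 0.7 CPM in shLuc libraries (SD, n = 3 each; log2 change -0.05, SE 0.055, adjusted p = 0.514), with overlapping groups. TRIM26 had 158.2 ± 3.6 CPM in shKDM6B libraries and 169.7 ± 7.0 CPM in shLuc libraries (SD, n = 3 each; log2 change -0.10, SE 0.044, adjusted p = 0.0735). The groups of TRIM26 did not overlap, and it passed under 3 alternatives, upper-quartile scaling, the replicate number as a block and leaving out shLuc replicate 3, with adjusted p from 0.0189 to 0.0339.

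TRIM14 went the other way. This member lacks a RING finger and serves as an adaptor of the mitochondrial antiviral protein MAVS. Its level was 50.3, 50.9 and 51.1 CPM in shKDM6B replicates 1 to 3 and 35.4, 39.3 and 35.7 CPM in shLuc replicates 1 to 3. The shKDM6B values all lay above the shLuc values (log2 fold change 0.46, SE 0.061, adjusted p = 2.85e-06).

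TRIM34, which lies beside TRIM5 and works with it against retroviruses, could not be assessed. It had 0, 0 and 1 counts in shKDM6B replicates 1 to 3 and 0, 1 and 1 in shLuc replicates 1 to 3. In GENCODE 29, 83.0% of its exon bases are shared with the readthrough gene TRIM6-TRIM34, which was at 0 in all 6 libraries, as was TRIM6. Reads that fall on several genes may have been left out of the counting, so the low count does not show that TRIM34 is silent.

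Of these 9 interferon-inducible members 8 were tested, and of the 7 other than TRIM22, 1 was higher, 4 were lower and 2 were not past the threshold. Among all 13839 tested genes 20.1% were called higher and 18.9% lower, or 39.1% in either direction. The median log2 fold change of the 7 was -0.19, beside -0.01 over all tested genes. Of the 8 tested members that held the response element, 4 were called lower, 2 higher and 2 neither, and of the 21 tested members whose windows lacked it, 5 were called lower, 7 higher and 9 neither.

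Genes around this group gave a mixed picture. In a list of 24 classical interferon-stimulated genes 14 were tested, and 9 of these were lower, 1 higher and 4 not past the threshold, beside 18.9% lower and 20.1% higher among all tested genes. The median log2 fold change of the 14 was -0.42. IFIT3, which binds IFIT1 in its complex on viral RNA, had raw counts of 8, 12 and 18 in shKDM6B replicates 1 to 3 and 82, 114 and 114 in shLuc replicates 1 to 3, a fall of a size near that of TRIM22 (log2 fold change -3.07, SE 0.20, adjusted p = 6.06e-11). IFIT1 (-1.88, adjusted p = 1.30e-06), OAS1 (-0.69, adjusted p = 4.21e-06) and IFIT5 (-0.47, adjusted p = 7.22e-05) were lower on the log2 scale as well.

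Of 10 genes that carry the type I interferon signal, 3 were called higher, 2 were called lower and 5 missed the threshold, beside 39.1% called among all tested genes. IRF9, the DNA-binding part of the complex ISGF3, was at 1.67 ± 0.42 CPM in shKDM6B libraries and 3.17 ± 0.62 CPM in shLuc libraries (SD, n = 3 each; log2 change -0.89, SE 0.27, adjusted p = 0.0109). Its partner STAT2 (-0.16, adjusted p = 0.00465) was lower, and the receptor chain IFNAR1 (0.19, adjusted p = 0.00139) and the transcription factor IRF1 (0.19, adjusted p = 0.00110) were higher. Among 8 genes of cytosolic nucleic acid sensing 2 were called higher and 2 lower, and 4 missed the threshold, beside the same share. DHX58 (-1.16, adjusted p = 1.92e-05) and DDX58, the gene of RIG-I (-0.47, adjusted p = 0.00384), were lower, and TMEM173, the gene of STING (0.28, adjusted p = 0.000125), and IFIH1, the gene of MDA5 (0.12, adjusted p = 0.0448), were higher.

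Over the whole family, 10 of the 39 tested members were called higher and 13 lower, TRIM22, TRIM46 and TRIM71 included, and 16 did not pass. Of the 36 members that passed the filter in every library, which leaves out TRIM22, TRIM46 and TRIM71, 9 were called higher and 11 lower. That is 55.6% called, beside 39.1% of all tested genes. The groups did not overlap in 22 of the 36, or 61.1%, beside 48.4% of all tested genes. Both shares of all tested genes include genes that passed the filter in only some libraries, so they are not matched to the 36. Of the 23 calls 10 were under 1.2-fold. TRIM5 was the single member of the 36 called with a change of at least 2-fold, beside 439 of all 13839 tested genes, or 3.17%. The median log2 fold change of the 36 was -0.02. When libraries were scaled on 3205 sparsely covered genes (under 0.03 counts per exon base), 11 of the 39 members were higher and 9 lower, and over all genes 64.5% of the calls were higher, against 51.5% with the TMM scaling of all tested genes.

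**Figure D2:**
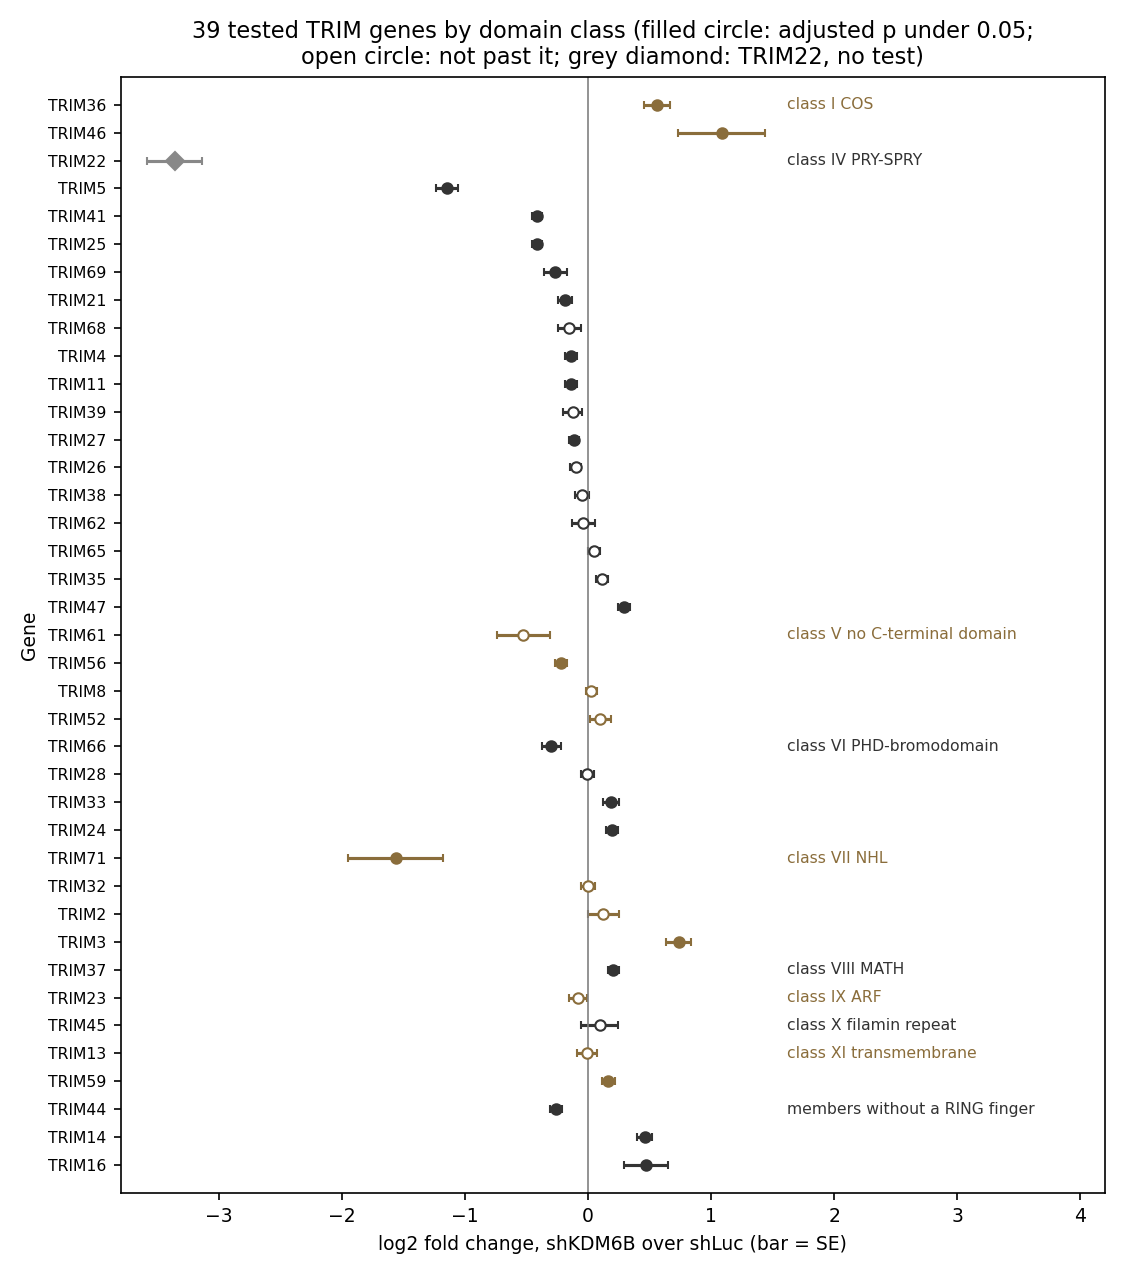
Log2 fold change of shKDM6B over shLuc with its SE for the 39 tested TRIM genes, grouped by domain class. Filled circles are past an adjusted p of 0.05, open circles are not, and the grey diamond is TRIM22, given with no test. TRIM46 and TRIM71 passed the low-count filter through the group where they are higher, so their filled circles are not read as calls. Most members lie close to 0, and TRIM22 (-3.36), TRIM71 (-1.57), TRIM5 (-1.15) and TRIM46 (1.09) stand farthest from it.

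The PRY-SPRY class, to which TRIM22 and TRIM5 belong, was listed here without the members listed as lacking a RING finger. It had 16 tested members beside TRIM22, of which 8 were lower, 1 higher and 7 not past the threshold. Among all tested genes 18.9% were lower and 20.1% higher. TRIM14 and TRIM16, both called higher, were listed as lacking a RING finger and are not in these counts. The median log2 fold change of the 16 was -0.13. TRIM41, a ligase whose long form carries an acidic RING region, was at 130, 125 and 131 CPM in shKDM6B replicates 1 to 3 and at 174, 171 and 171 CPM in shLuc replicates 1 to 3. The groups were far apart for their spread (log2 fold change -0.42, SE 0.042, adjusted p = 5.22e-08). TRIM69, a spindle and centrosome protein, was called lower (-0.27, SE 0.090, adjusted p = 0.0229), but shKDM6B replicate 3, at 31.0 CPM, lay within the shLuc range of 30.9 to 33.6 CPM. Leaving out shKDM6B replicate 1 gave an adjusted p of 0.126, leaving out shKDM6B replicate 2 gave 0.0900 and leaving out shLuc replicate 3 gave 0.0656. Without the 3 libraries of highest keratin level the log2 fold change of TRIM69 was -0.06.

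Chosen after their values were seen, TRIM11 (-0.14), TRIM4 (-0.14) and TRIM27 (-0.12) complete the members called lower in this class list. Their adjusted p values were 0.0201, 0.0242 and 0.0381. Each lost its call when libraries were scaled on the sparsely covered genes, at adjusted p from 0.330 to 0.589. Leaving out 1 library also ended the call of TRIM27 (any but shLuc replicate 3), of TRIM4 (replicate 1 or 2 of either group) and of TRIM11 (shKDM6B replicate 2, shKDM6B replicate 3 or shLuc replicate 1), with adjusted p from 0.0522 to 0.169. Without the 3 libraries of highest keratin level the log2 fold change was -0.12 for TRIM11 and -0.10 for TRIM4. The single member called higher in this class list, which leaves out TRIM14 and TRIM16, was TRIM47. It was at 95.6, 93.1 and 90.8 CPM in shKDM6B replicates 1 to 3 and 75.1, 76.6 and 76.1 CPM in shLuc replicates 1 to 3 (log2 fold change 0.29, SE 0.046, adjusted p = 2.25e-05). In GENCODE 29, 51.5% of the exon bases of TRIM47 are covered by an opposite-strand gene, and the library kit as named does not mark strand, so reads of the 2 genes cannot be told apart.

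Beside the cluster of TRIM6, TRIM34, TRIM5 and TRIM22, chromosome 11p15 carries TRIM3, TRIM21, TRIM66 and TRIM68. Of these 8 genes 6 were tested, and of the 5 other than TRIM22, 3 were lower, 1 higher and 1 not past the threshold, beside 18.9% lower and 20.1% higher among all tested genes. Their directions were mixed: TRIM3 was higher while TRIM5, TRIM21 and TRIM66 were lower. TRIM68 had 22.4 ± 1.4 CPM in shKDM6B libraries and 24.8 ± 3.2 CPM in shLuc libraries (SD, n = 3 each; adjusted p = 0.209).

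The chromatin-binding class, with a PHD finger and a bromodomain, was split. TRIM28, the co-repressor that KRAB zinc finger proteins bring to transposons, was the most abundant member per length in both groups, at 110.7 ± 6.2 CPM per kilobase of exon in shKDM6B libraries and 111.3 ± 6.8 in shLuc libraries (SD, n = 3 each). The test of TRIM28 did not pass (log2 fold change -0.01, SE 0.053, adjusted p = 0.930). It was also the member densest in reads, with 0.945 counts per base. Its CPM was lowest in the deepest library of each group, and the part of depth in its values was not tested.

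TRIM24, a nuclear receptor co-regulator that reads modified histone H3, was higher, at 130.0 ± 5.0 CPM in shKDM6B libraries and 113.5 ± 8.0 CPM in shLuc libraries (SD, n = 3 each; log2 change 0.19, SE 0.050, adjusted p = 0.00350). TRIM33, which acts on SMAD4 in TGF-beta signalling, had 57.0, 61.2 and 61.7 CPM in shKDM6B replicates 1 to 3 and 45.5, 55.2 and 56.5 CPM in shLuc replicates 1 to 3 (log2 fold change 0.19, SE 0.067, adjusted p = 0.0301). The lowest value was that of shLuc replicate 1, and without that library the adjusted p of TRIM33 was 0.210. Without shKDM6B replicate 2 it was 0.0971 and without shKDM6B replicate 3 it was 0.0855. Without the 3 libraries of highest keratin level the log2 fold change of TRIM33 was 0.14. TRIM66 was lower, at 29.3 ± 3.0 CPM in shKDM6B libraries and 36.2 ± 1.4 CPM in shLuc libraries (SD, n = 3 each). Its log2 fold change was -0.30 (SE 0.077, adjusted p = 0.00361), and -0.19 without the 3 libraries of highest keratin level.

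Of 7 genes listed as partners of TRIM28, 2 were lower, 0 higher and 5 not past the threshold, beside 39.1% called among all tested genes. The methyltransferase SETDB1 (-0.20, adjusted p = 0.000801) and its cofactor ATF7IP (-0.37, adjusted p = 8.27e-05) were the 2 lower ones on the log2 scale. ATF7IP had 51.3 ± 4.8 CPM in shKDM6B libraries and 66.6 ± 4.1 CPM in shLuc libraries (SD, n = 3 each).

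In the NHL class, whose carboxy end is a propeller that binds RNA or protein, TRIM3 was higher. It had 21.5, 21.1 and 24.4 CPM in shKDM6B replicates 1 to 3 and 13.9, 12.3 and 14.3 CPM in shLuc replicates 1 to 3. The groups did not overlap (log2 fold change 0.74, SE 0.10, adjusted p = 4.21e-06). TRIM71, the human counterpart of worm lin-41 and a let-7 target in stem cells, was at very low counts, 4, 4 and 4 in shKDM6B replicates 1 to 3 and 9, 13 and 13 in shLuc replicates 1 to 3. Every shKDM6B count lay below every shLuc count, and the log2 fold change was -1.57 (SE 0.39), with no p since the gene entered the test through its shLuc counts. TRIM2 and TRIM32 did not pass (adjusted p = 0.481 and 0.991).

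In the class that binds microtubules through a COS box, TRIM36 was higher. It had 19.2, 23.3 and 24.8 CPM in shKDM6B replicates 1 to 3 and 15.2, 16.3 and 14.5 CPM in shLuc replicates 1 to 3 (log2 fold change 0.56, SE 0.10, adjusted p = 0.000170). TRIM46, which bundles microtubules in the axon initial segment, had raw counts of 10, 15 and 15 in shKDM6B replicates 1 to 3 and 4, 7 and 7 in shLuc replicates 1 to 3. The groups did not overlap, and the log2 fold change was 1.09 (SE 0.35), with no p since the gene entered the test through its shKDM6B counts. TRIM9 and TRIM67, also of this class, had too few counts to be tested.

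Relatives that do not carry the TRIM name included another gene of this microtubule-binding class that was higher. MID2, a close paralog of MID1, had raw counts of 77, 83 and 96 in shKDM6B replicates 1 to 3 and 38, 38 and 43 in shLuc replicates 1 to 3 (log2 fold change 1.05, SE 0.15, adjusted p = 7.12e-06). PML, the organiser of PML nuclear bodies and itself interferon-inducible, was lower (-0.22, SE 0.045, adjusted p = 0.000375). In this list of 8 genes 4 were tested. MID1, the paralog of MID2, was not past the threshold (0.10, SE 0.11, adjusted p = 0.492) and its groups overlapped. TRIM16L did not pass either.

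The members listed here as lacking a RING finger, a list that may not be complete, were TRIM14, described above, TRIM44, TRIM16 and TRIM29. TRIM44, which has a deubiquitinase-like zinc finger, was lower, at 99.8 ± 4.5 CPM in shKDM6B libraries and 119.6 ± 3.5 CPM in shLuc libraries (SD, n = 3 each; log2 change -0.26, SE 0.046, adjusted p = 9.16e-05). TRIM16, a protein of autophagy of damaged lysosomes, was called higher (0.47, SE 0.18, adjusted p = 0.0423). The call was lost in 8 of 14 alternative analyses, among them leaving out any library other than shLuc replicate 3 (adjusted p from 0.0512 to 0.242 over the 8). The 8 include the one with a lone shKDM6B library, which cannot show spread within that group. Reads of TRIM16 may also be split with its near copy TRIM16L, which had 34, 41 and 56 counts in shKDM6B replicates 1 to 3 and 30, 43 and 38 in shLuc replicates 1 to 3.

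TRIM29, also named ATDC and known from squamous epithelia, had too few counts to be tested. It had 3, 14 and 0 counts in shKDM6B replicates 1 to 3 and 1, 0 and 2 in shLuc replicates 1 to 3. Its highest count lay in the library with the highest squamous epithelial markers, and shKDM6B replicate 3, with the lowest marker level, had none. Their part in the TRIM29 count was not tested.

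TRIM40, a member expressed in the gut that restrains NF-kB signalling, had 0 counts in all 3 shKDM6B libraries and 4, 5 and 5 in shLuc replicates 1 to 3. Set against a floor of 3 counts over the shKDM6B group, the observed shLuc counts were 4.84-fold higher after scaling for depth. That ratio leaves out the counting error of the shLuc counts, so it is not a lower bound. The gene stayed below the filter on low counts and was not tested.

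**Figure D3:**
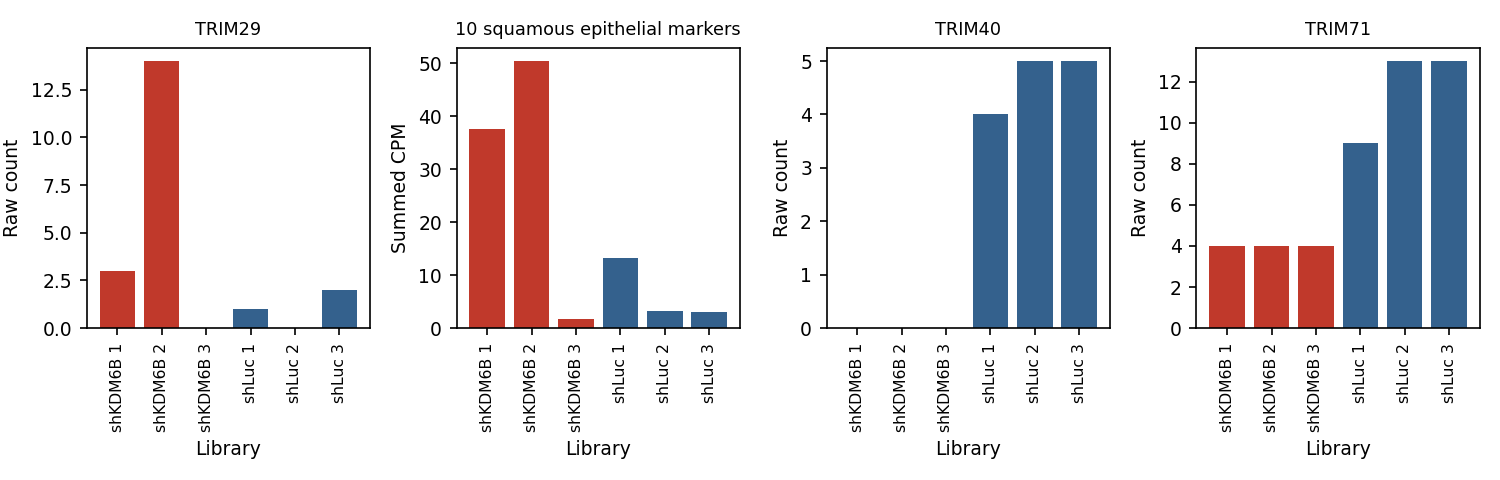
Raw counts of TRIM29, TRIM40 and TRIM71 and the summed CPM of 10 squamous epithelial markers in the 3 shKDM6B and 3 shLuc libraries. TRIM29 is highest, at 14 counts, in the library with the highest marker sum, 50.4 CPM, while TRIM40 and TRIM71 are lower in all 3 shKDM6B libraries than in any shLuc library.

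Among the remaining called members were 2 with other domain plans. TRIM37, a MATH-domain ligase that limits centrosome duplication, was higher, at 96.9 ± 2.0 CPM in shKDM6B libraries and 83.9 ± 2.2 CPM in shLuc libraries (SD, n = 3 each). Its log2 fold change was 0.21 (SE 0.045, adjusted p = 0.000908), and 0.18 without the 3 libraries of highest keratin level. TRIM59, a membrane-anchored member, was called higher (0.16, SE 0.056, adjusted p = 0.0221), but 34.3% of its exon bases in GENCODE 29 are shared with other genes. The call was lost in 5 of 14 alternative analyses, among them leaving out shKDM6B replicate 2, shKDM6B replicate 3 or shLuc replicate 1 (adjusted p from 0.0586 to 0.195 over the 5). The 5 include the one with a lone shKDM6B library, which cannot show spread within that group.

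The 16 tested members that did not pass had log2 fold changes from -0.53 to 0.12, and 15 of them lay within 0.2 of 0. The one beyond was TRIM61, at 19, 36 and 32 counts in shKDM6B replicates 1 to 3 and 33, 47 and 41 in shLuc replicates 1 to 3 (adjusted p = 0.0547). Without shKDM6B replicate 2 TRIM61 passed (adjusted p = 0.0199), and without shLuc replicate 1 so did TRIM68 (0.0382) and TRIM35 (0.0466). The log2 fold change of TRIM35 was 0.11 over all libraries and 0.20 without the 3 libraries of highest keratin level. A missed threshold does not show that a gene did not differ.

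Set in order of level per length, the family spanned a wide range. After TRIM28, the next members in shLuc libraries were TRIM26, TRIM25, TRIM21 and TRIM47, at 36.2, 25.1, 24.4 and 29.7 CPM per kilobase in shKDM6B libraries and 38.8, 33.4, 27.7 and 24.2 CPM per kilobase in shLuc libraries. Of the interferon-inducible members among them, TRIM26 ranked 2 in both groups. TRIM25 and TRIM21 ranked 5 and 6 in shKDM6B libraries and 3 and 4 in shLuc libraries. TRIM22 was a weakly expressed member in both groups, at 0.184 ± 0.094 CPM per kilobase in shKDM6B libraries and 1.98 ± 0.12 in shLuc libraries (SD, n = 3 each), rank 38 and rank 34 of the 39. TRIM5 stood at rank 31 in shKDM6B libraries and rank 23 in shLuc libraries.

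**Figure D4:**
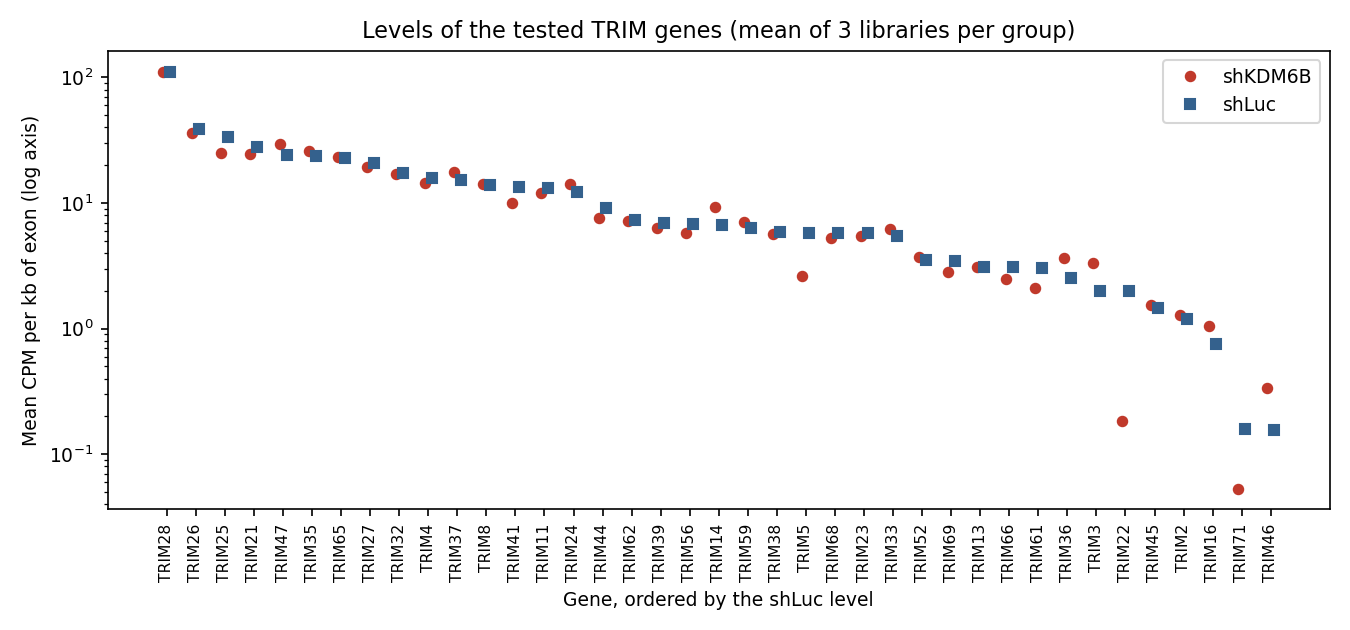
Mean CPM per kilobase of exon (log axis) of the 39 tested TRIM genes in shKDM6B and shLuc libraries, ordered by the shLuc level. TRIM28 leads in both groups at about 111 CPM per kilobase, and TRIM22, TRIM5 and TRIM71 are the points with the widest gap below their shLuc level.

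Members at 0 in all 6 libraries included the muscle ligases TRIM55 and TRIM63 and the primate-expanded genes TRIM43, TRIM43B, TRIM48, TRIM49, TRIM49B, TRIM51, TRIM64, TRIM64B and TRIM77, whose near-identical copies could also split or lose reads in counting. A count of 0 does not show that these genes are silent.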

How the data were processed

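RNA of 6 MM.1S libraries, 3 per hairpin, was measured. Raw counts per gene symbol are what the authors deposited. The submitters' processing notes list STAR, featureCounts and DESeq beside the build GRCh37 (hg19), with no version. The annotation, strand setting and treatment of reads on several genes are unknown here. Each library held 56637 symbols; 1 line with a date for a name was left out. The authors' normalized table was not used.

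The main test was the quasi-likelihood test of edgeR 4.0.16 (R 4.3.3), run on these counts after filterByExpr and TMM scaling, with hairpin as its single term and Benjamini-Hochberg adjustment over 13839 genes at 0.05. SEs are those implied by the quasi-likelihood statistic. The fit was tested on simulated data. Exon lengths and overlaps came from GENCODE 29 (another build, so no coordinates are taken from it), promoters from RefSeq.

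Members and lists were chosen with earlier results of these data known. Named were the interferon-inducible members, the 10 largest rises and 10 largest falls among called members, the 5 highest per length, and up to 4 called genes of each other list. Every replicate pair differed beyond counting noise (chi-square per degree of freedom 1.08 to 1.34). Alternatives were other scalings and filters, the replicate number as a block, DESeq2, a stricter threshold, and leaving out libraries.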

Additional observations from a re-analysis of the deposited data

How the results depend on the processing

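In each alternative that gave a value, KDM6B, TRIM22 and 9 more called members (TRIM25, TRIM41, TRIM24, TRIM44, TRIM47, TRIM14, TRIM5, TRIM36 and TRIM3) kept their direction. Of the 14 alternatives at an adjusted p of 0.05, the 1 without the 3 libraries with keratin counts left a lone shKDM6B library. That fit cannot show spread within the group, so its calls are not counted here. In the others these 9 stayed past 0.05, as did TRIM37, TRIM56 and TRIM66, and TRIM71 where it had a value. TRIM27, TRIM11, TRIM4, TRIM33, TRIM59, TRIM21, TRIM69, TRIM16 and TRIM46 lost the call in at least 1 of them. The main counts of called members were 10 higher and 13 lower, or 9 and 11 of 36 without TRIM22, TRIM46 and TRIM71. The counts that follow include those 3 members wherever they passed. They became 6 and 7 by the DESeq2 1.42.0 Wald test, and 6 and 8 at an adjusted p of 0.01. Over all genes DESeq2 called 1831 higher and 1590 lower of 14090, and the stricter threshold 2035 and 1853 of 13839. Leaving out 1 library at a time gave 6 to 10 higher and 9 to 13 lower members, the lowest both without shKDM6B replicate 2. The log2 fold change of KDM6B ran from -0.79 to -0.66 and that of TRIM22 from -3.87 to -3.07 in the same analyses. Deviations correlated weakly between libraries of the same replicate number (0.116, -0.0767 and 0.152 for replicates 1 to 3). Whether the number pairs the libraries was not settled. With the replicate block 11 members were higher and 15 lower. Over all genes it gave 3166 higher and 3052 lower, against 2783 and 2622 in the main test. With the last base of the response element dropped, 8.11% of windows held it, against 3.57% for the full element, and the same 9 members. Leaving out libraries also lowers the number of libraries tested; other causes were not tested. Depth limits members under about 10 counts per library.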
